A study of Mus musculus with 9 samples.

Results

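Transcripts of 10 genes known from mucus-covered epithelia were examined in sorted medullary epithelial cells of the mouse thymus (mTEC), out of 30930 RefSeq entries measured in any of the files. The genes were chosen by name as a group of trefoil, mucin and goblet cell genes, namely Tff1, Tff2, Tff3, Muc1, Muc2, Muc4, Muc5b, Muc13, Agr2 and Reg3g, and the rule that finds their entries selects on no difference between samples. The group itself was chosen with earlier results of these data known, so its shares are not those of a blind draw. Each of the 10 symbols had 1 entry, and each entry was present in all 9 libraries.

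RNA-seq was done on 9 libraries with 1 library per group, all from cells sorted as CD45- Ly51- from pooled thymi of 4-week-old B6 mice. In the first pair, mTEC with high surface I-A/E (mTEChi) came from wild-type (WT) mice or from mice labelled Aire-/-, called here the library labelled Aire-KO, each sorted from a pool of 4 thymi. In the second pair, called Exp2, mTEChi and mTEC with low I-A/E (mTEClo) came from the same WT mice. The other 5 libraries came from WT mTEChi, 4 of them treated with actinomycin D, an inhibitor of transcription, at 1 uM for 1.5, 3, 6 or 12 h. The remaining library, 0 h, is labelled as the reference timepoint and is taken here as untreated. A non-directional TruSeq kit and paired reads were used for the pairs and for 0 h, but SMARTer amplification, Nextera and single reads for the 4 treated libraries, so any difference of 0 h from later times could come from either the kit or the drug, which cannot be told apart. The knockout was in every cell of the mice rather than in mTEC alone, and pooling leaves no measure of the spread between animals.

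Mucus is built from gel-forming mucins, very long glycoproteins that goblet cells fold and cross-link in the endoplasmic reticulum, coat with O-linked sugars and release from granules, while membrane-bound mucins form the sugar coat of the cell surface itself. Trefoil peptides are small secreted proteins that accompany mucins and aid repair of the epithelium, and Reg3 lectins are antibacterial proteins that gut epithelium releases towards the mucus. In the thymus, mTEC are known to express many genes of peripheral tissues, a number of them under the control of Aire, and to display their products to developing T cells.

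The 3 trefoil genes lie side by side on the minus strand of chromosome 17 of build mm9, with Tff3 (NM_011575) at 31262251 to 31266591, Tff2 (NM_009363) at 31277994 to 31281227 and Tff1 (NM_009362) at 31298341 to 31301998. The genes of both gel-forming mucins lie on the plus strand of chromosome 7, Muc2 (NM_023566) at 148876268 to 148940595 and Muc5b (NM_028801) at 149024975 to 149058990. Among the membrane-bound mucins, Muc1 (NM_013605) is on chromosome 3 at 89032979 to 89037303, and chromosome 16 carries Muc4 (NM_080457) at 32735972 to 32782477 and Muc13 (NM_010739) at 33794123 to 33820020, all on the plus strand. Agr2 (NM_011783) is on the plus strand of chromosome 12 at 36719494 to 36730674, and Reg3g (NM_011260) on the minus strand of chromosome 6 at 78416262 to 78418868. Each entry adds the reads of all annotated exons, untranslated parts included. Counting used no strand, and Muc4 overlaps 4973 bases of Muc20 on the other strand, Tff1 overlaps 1657 bases of Gm15318 and Muc13 overlaps 2838 bases of Gm15657, so reads in those stretches cannot be assigned to 1 gene.

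Promoter sequence from RefSeq (build GRCm38.p6, coordinates not those of mm9) was found for 6 of the 10 genes, Tff1, Tff2, Tff3 and Muc5b being absent from the table. The stretch from 44 to 15 bases before the annotated start is shown because Muc1, Muc2, Muc4 and Reg3g share there the letters TATAA (in capitals) on the gene's strand, although the fold of these genes in the Aire pair, given further on, ran from the second largest to the smallest of the 10. The stretches of Agr2 and of both annotated starts of Muc13 are shown for comparison.
Muc1, chr3:89229012-89229041, plus strand: ggagggggactggTATAAagcagcaggcac
Muc2, chr7:141690296-141690325, plus strand: ggatgcctgctaagcaTATAAgtcctggac
Muc4, chr16:32735842-32735871, plus strand: atagtaccTATAAacctcactttttctcct
Reg3g, chr6:78468889-78468918, minus strand: cctccctcaagtcctacTATAAaaacagtc
Agr2, chr12:35992881-35992910, plus strand: aaatacaggctcagcgctgcgctggcacac
Muc13, first start, chr16:33793993-33794022, plus strand: catctgccactaagcctgatgacctgaatt
Muc13, second start, chr16:33794445-33794474, plus strand: ggacttgaaagacagttaaaactccaggca
TATAA was searched on the gene's strand alone. It was in 3.87% of the 32851 promoter stretches of this length in the table. Among the stretches of symbols at least 3-fold higher in WT of the Aire pair the share was 10.4% of 4140, and among those within 2-fold it was 2.19% of 12590. A match of letters is a description of the sequence and not a bound site.

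Reads summed over entries ran from 74161592 to 195444567 in the 5 untreated libraries and fell with time of treatment from 21124165 at 1.5 h to 1746825 at 12 h, where 3 reads, the most that a count of 0 allows, make 1.72 CPM (counts per 1000000 reads). The sums cover 30794 entries in each library of the pairs but 25537 entries at 0 h and in the treated libraries. Levels per total at 0 h and later can therefore read high against the pairs, by an amount that was not computed. Aire itself was 2.99-fold higher in the library labelled Aire-KO than in WT, at 87380 against 29191 normalised counts. Because an entry adds the reads of all exons, this neither shows nor excludes a transcript without function, and the columns of that pair carry no sample names, so the direction rests on how the study's own code reads them. Of 10 mTEC markers, none was at least 3-fold higher in WT, and their summed level was 17490 CPM in WT and 21913 CPM in the library labelled Aire-KO. In the Exp2 pair, the class II genes Cd74 and H2-Aa were 3.12-fold and 3.43-fold higher in mTEChi, and the chemokine gene Ccl21a and the basal keratin gene Krt5 were lower there, at 0.0482 and 0.154 times the level in mTEClo.

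All 10 genes had reads in all 9 libraries. Per length, as CPM per kilobase of exon (RPKM), Reg3g led in each of the 9, whereas the lowest level was that of Muc2 or Muc5b. Over the 3 untreated WT mTEChi libraries, the mean level was 1430 RPKM ± 911 (SD, n = 3) for Reg3g, 107 ± 46.1 for Tff3, 62.3 ± 15.6 for Muc1 and 45.2 ± 25.8 for Muc13. It was 27.6 ± 12.5 for Tff1, 26.8 ± 8.35 for Tff2 and 9.56 ± 6.51 for Agr2. The 3 longest entries closed the order, with 2.26 ± 1.31 for Muc4, 2.09 ± 1.46 for Muc5b and 1.55 ± 1.15 for Muc2. Reg3g stood clear of Tff3, Tff2 of Agr2 and Agr2 of Muc4, whereas every other pair of neighbours in this order had overlapping ranges. These 3 libraries are not labelled as replicates of each other, and their highest over lowest CPM, 1.88 for the median entry, was 1.68 for Muc1, 3.91 for Reg3g and 6.91 for Muc5b. In WT, Reg3g stood above 99.97% of 22999 symbols by RPKM, and Muc2 above 37.8%.

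**Figure D1:**
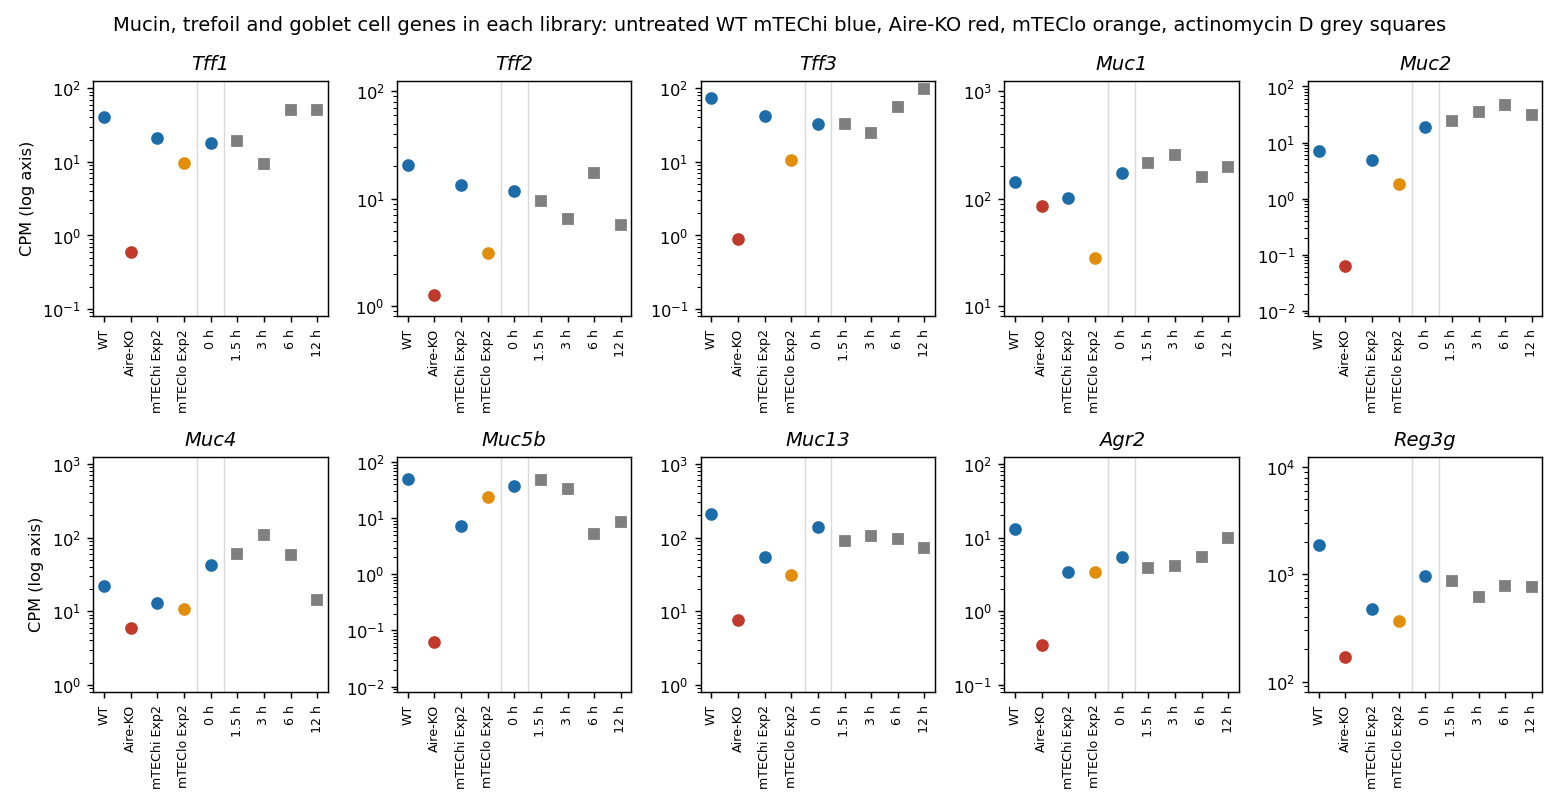
Level of each of the 10 genes in the 9 libraries, in CPM on a log axis, each point being 1 library. The library labelled Aire-KO (red) lies under all 3 untreated WT mTEChi libraries (blue) in every panel, and mTEClo (orange) lies under them in 9 panels of 10, Muc5b being the exception.

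The first comparison asks which of these transcripts depend on Aire in mTEChi. Of the 10 genes, 9 were at least 3-fold higher in WT, against 21.1% of all 26761 entries tested, none was at least 3-fold lower, against 2.03%, and 1 was within 2-fold, against 65.5%. At a limit of 2-fold the count was again 9, against 27.3%. Were both columns of this pair the other way round, these 9 would be at least 3-fold lower in WT, as would those 21.1% of entries, and each fold would be its inverse, 0.00149 for Muc5b and 0.697 for Muc1. The median fold of the 10 was 27.4, beside 1.02 over all entries tested. Muc1, at 1.43-fold, was the exception. In bulk samples, fewer cells of a type and less RNA per cell cannot be told apart.

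Tff1, which is best known from the stomach surface, stood at 40.1 CPM in WT and 0.587 CPM in the library labelled Aire-KO, with 20.8 CPM in mTEChi Exp2 and 18.2 CPM at 0 h. The fold within the pair, on normalised counts, was 58.2 (95% interval 46.9 to 73.1). Tff3, the trefoil peptide of intestinal goblet cells, stood at 72.9 CPM in WT and 0.895 CPM in the library labelled Aire-KO, with 41.8 CPM in mTEChi Exp2 and 32.7 CPM at 0 h, a fold of 69.5 (58.4 to 83.4). The library labelled Aire-KO was thus far below the lowest WT mTEChi library for both genes. Tff2, a product of gastric mucous neck cells, kept more of its level, with 20.8 CPM in WT, 13.3 CPM in mTEChi Exp2, 11.9 CPM at 0 h and 1.25 CPM in the library labelled Aire-KO. The fold was 14.1 (12.1 to 16.6), an interval that does not meet those of its chromosomal neighbours Tff1 and Tff3. All intervals are exact, use the reads of 1 library on each side and hold counting error alone, PCR copies of a molecule being counted as separate reads. The paper trimmed paired reads and pooled both ends as single reads, so both ends of a fragment can count. The intervals of both pairs can therefore be too narrow.

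Muc5b, the gel-forming mucin of airway and salivary glands, had the fold farthest from 1 of the 10. It stood at 49.4 CPM in WT, 37.4 CPM at 0 h and 7.15 CPM in mTEChi Exp2, but at 0.0629 CPM in the library labelled Aire-KO, where 9 reads were counted against 5156 in WT. The resulting fold of 670 (353 to 1466) is wide because of those 9 reads. Muc2, the main mucin of intestinal mucus, had 9 reads in the library labelled Aire-KO as well, or 0.0629 CPM. Its level was 7.07 CPM in WT, 4.97 CPM in mTEChi Exp2 and 19.3 CPM at 0 h, and the fold was 95.9 (50.2 to 210.5). For both, the lowest WT mTEChi library still exceeded the library labelled Aire-KO in CPM, by 114-fold for Muc5b and by 78.9-fold for Muc2.

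The folds of the membrane-bound mucins ran from 1.43 to 23.5. Muc13, a transmembrane mucin of gut epithelium, stood at 208 CPM in WT, 140 CPM at 0 h, 54.8 CPM in mTEChi Exp2 and 7.53 CPM in the library labelled Aire-KO, a fold of 23.5 (22.1 to 25.1) within the pair. Muc4, which is known as a partner of ErbB receptors, stood at 21.7 CPM in WT, 41.8 CPM at 0 h, 13.0 CPM in mTEChi Exp2 and 5.87 CPM in the library labelled Aire-KO. The resulting 3.16-fold difference (2.91 to 3.42) lay just past the limit of 3, with an interval on both sides of it, and was 2.21 in CPM with mTEChi Exp2 in place of WT. Muc1, a mucin of most simple epithelia, was at 144 CPM in WT, 172 CPM at 0 h, 102 CPM in mTEChi Exp2 and 85.6 CPM in the library labelled Aire-KO, a fold of 1.43 (1.40 to 1.47). The library labelled Aire-KO was the lowest of the 4 untreated mTEChi libraries for Muc1 too, at 1.19-fold under mTEChi Exp2 in CPM.

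Agr2, a protein disulfide isomerase of the endoplasmic reticulum that mucin folding in goblet cells requires, stood at 12.9 CPM in WT, 5.50 CPM at 0 h, 3.45 CPM in mTEChi Exp2 and 0.350 CPM in the library labelled Aire-KO. The fold was 31.4 (23.6 to 42.5), and the lowest WT mTEChi library was 9.86-fold above the library labelled Aire-KO in CPM. Reg3g, the antibacterial lectin, was by far the most abundant, with 1869 CPM in WT, 973 CPM at 0 h, 478 CPM in mTEChi Exp2 and 169 CPM in the library labelled Aire-KO. The fold of 9.41 (9.28 to 9.53) shrank to 2.82 in CPM when mTEChi Exp2, the lowest WT mTEChi library, was set against the library labelled Aire-KO. Reg3g therefore remained well expressed in the library labelled Aire-KO, at 219 RPKM, a level per length above that of the other 9 genes in WT. Reads that fit several members of the Reg3 family could have been split or lost, as the handling of such reads is not given in the sources used here.

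**Figure D2:**
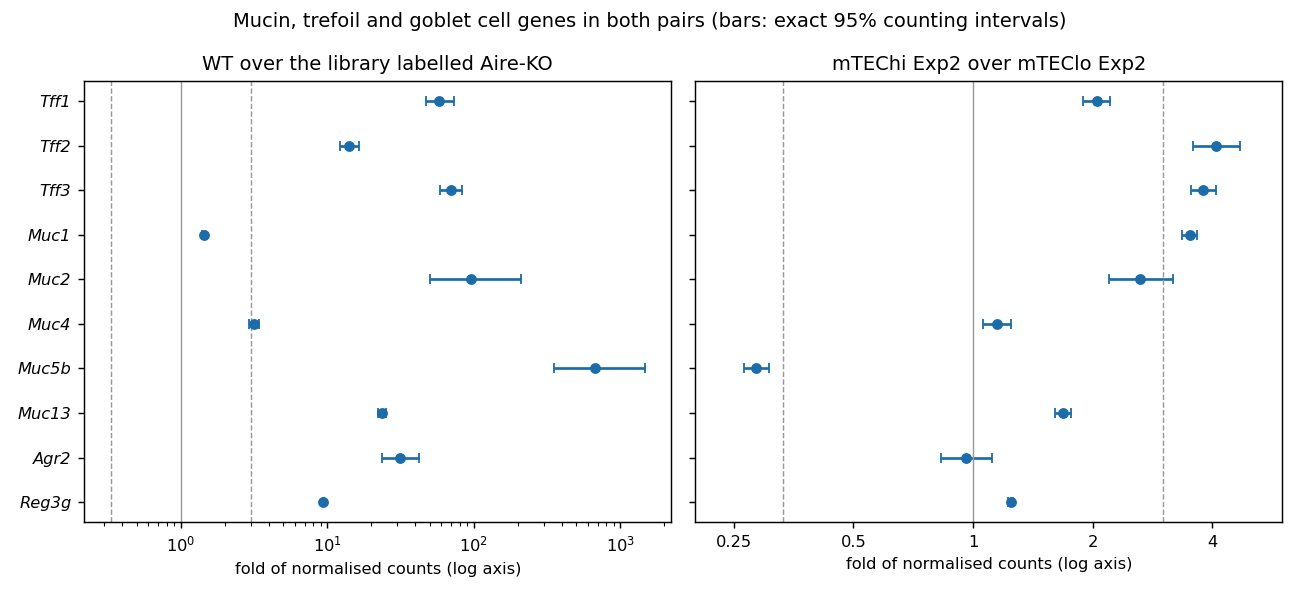
Fold of normalised counts (log axis) of each gene in both pairs, with bars for exact 95% intervals from the reads, a solid line at 1 and dashed lines at 3-fold. In the Aire pair 9 genes lie to the right of the 3-fold line, up to 670 for Muc5b, whereas in the Exp2 pair the folds run from 0.285 for Muc5b to 4.09 for Tff2.

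The library labelled Aire-KO was below all 3 untreated WT mTEChi libraries in CPM for 10 of the 10 genes, as it was for 45.9% of the 25004 entries tested, and above all 3 for none, against 11.0%. With these 3 libraries as the measure of spread and the lone library assumed to vary like them, 6 of the 10 genes passed edgeR's quasi-likelihood test with Benjamini-Hochberg adjustment over 23916 entries, 8.64% of which were called higher and 0.0878% lower in WT. These were Tff1 (log2 fold 5.23 ± 0.89, SE; adjusted p = 0.0159), Tff2 (3.35 ± 0.70; 0.0295), Tff3 (5.53 ± 0.89; 0.0133), Muc2 (7.02 ± 1.17; 0.0150), Muc5b (8.66 ± 1.58; 0.0195) and Muc13 (3.89 ± 0.94; 0.0470). Agr2 had a log2 fold of 4.12 ± 1.05 with an adjusted p of 0.0538 in edgeR, and Reg3g one of 2.45 ± 0.84 with an adjusted p of 0.133. For Muc4 the log2 fold was 1.80 ± 0.72 and the adjusted p in edgeR 0.202, and for Muc1 they were 0.41 ± 0.50 and 0.810. In DESeq2, which called 15.6% of entries higher and 0.339% lower in WT, 8 of the 10 genes passed, Agr2 and Reg3g being added. Agr2 also passed in edgeR without TMM, without the expression filter and without any 1 of the 3 WT mTEChi libraries, and Reg3g without mTEChi Exp2.

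Genes of the same biology, listed by function, were read beside them. The other mucins with an entry all had a fold of 3 or more, namely Muc5ac, the gel-forming mucin of the stomach surface, at 178 (127 to 257), Muc15 at 11.6 (9.74 to 14.0) and Muc20 at 5.36 (4.17 to 6.98), and 2 of the 3 passed in edgeR. Among 12 proteins of mucus and goblet granules, 10 were at least 3-fold higher in WT and 7 passed in edgeR. They included Clca1, a protease of mucus, at 11.3-fold (10.7 to 12.0), and Dmbt1, a scavenger receptor-like protein of mucosal secretions, at 54.7-fold (44.4 to 68.1). The lectin gene Itln1 was at 2.38-fold, and Fcgbp, whose product is cross-linked into intestinal mucus, was the most abundant of the list at 5939 CPM in WT and 7035 CPM in the library labelled Aire-KO, a fold of 0.720.

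In the list of Reg family and mucosal antimicrobial genes, 12 of 13 reached 3-fold in favour of WT and 8 of the 12 tested passed in edgeR. Reg3b, a paralogue of Reg3g, was at 70.0-fold (61.8 to 79.5), the lactoferrin gene Ltf at 80.7 (68.5 to 95.6), Pigr, which carries IgA across epithelium, at 8.59 (8.33 to 8.86) and Lypd8 at 4.61 (4.52 to 4.70). Of 14 genes of mucin O-glycosylation, 1 was at least 3-fold higher and 9 were within 2-fold, with Galnt4 at 0.907, Galnt7 at 0.611 and Gcnt1 at 0.702. In the list of 8 endoplasmic reticulum and stress genes, 2 were at least 3-fold higher, 6 were within 2-fold, and Xbp1, the regulator of the secretory apparatus, stood at 1.36-fold. Among 9 transcription factors of goblet and secretory cells, 4 were at least 3-fold higher. Spdef, a regulator of goblet cell maturation, was at 18.8-fold (13.8 to 26.4) from 6.49 CPM in WT, whereas Klf4 was at 2.35 and Sox9 at 0.678.

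**Figure D3:**
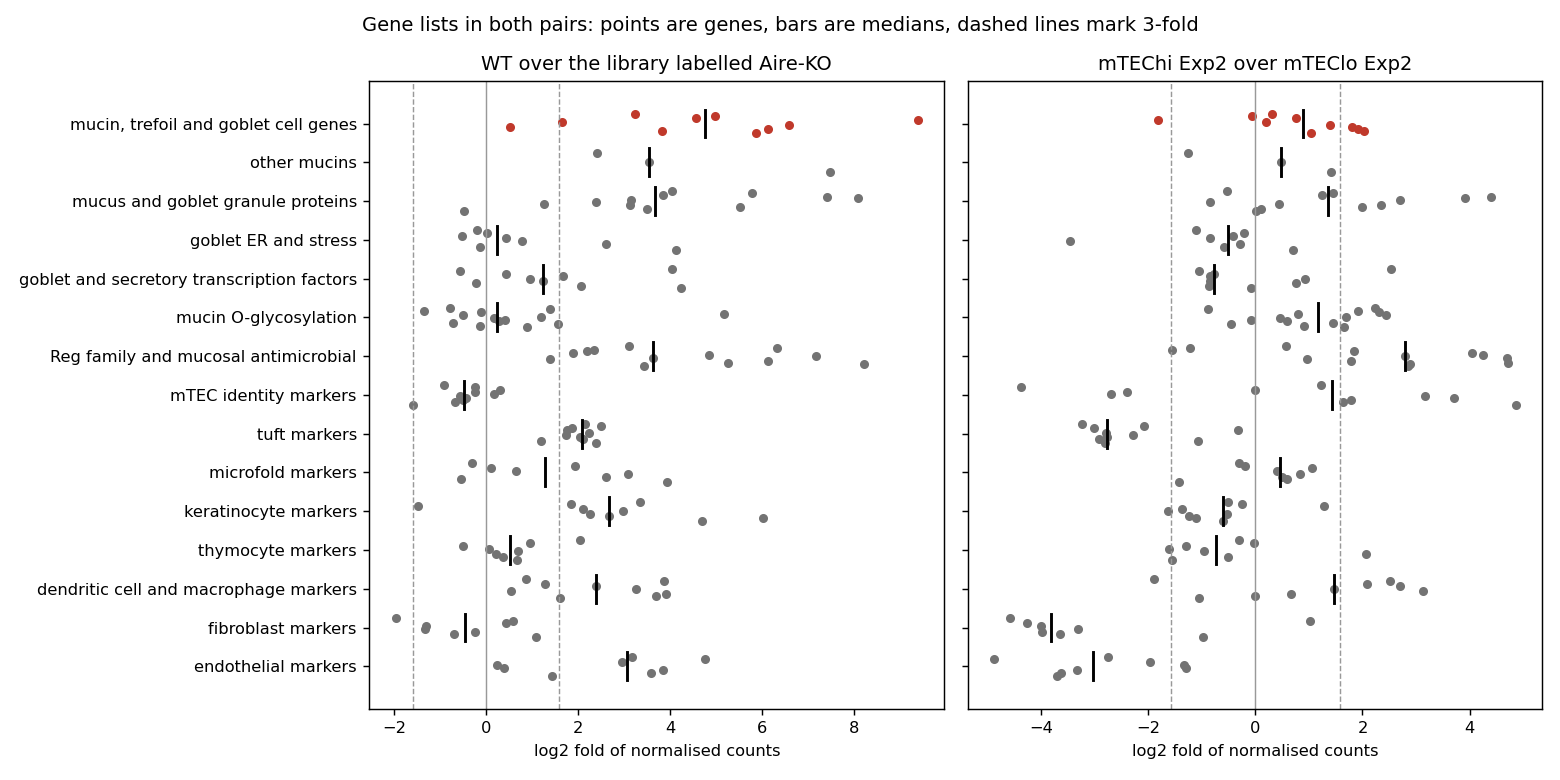
Log2 fold of normalised counts in both pairs for the 10 genes (red) and 14 other lists (grey), each point being 1 gene and each black bar the median of a list, with dashed lines at 3-fold. In the Aire pair the median of the 10 genes is the farthest to the right, at 27.4-fold, those of other mucins, mucus, Reg, tuft, keratinocyte, dendritic cell and endothelial lists also lie past 3-fold, and those of O-glycosylation and endoplasmic reticulum genes lie near 0.

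Markers of other cell types also differed between the libraries of this pair. At least 3-fold higher in WT were 9 of 10 tuft cell markers (summed level 842 CPM in WT, 180 CPM in the library labelled Aire-KO), 4 of 8 microfold cell markers (2605 and 1715 CPM) and 8 of 9 keratinocyte markers (1371 and 443 CPM). The same held for 6 of 9 markers of dendritic cells and macrophages (685 and 356 CPM), 5 of 8 endothelial markers (61.6 and 25.4 CPM) and 1 of 8 thymocyte markers (42.8 and 27.8 CPM), and for none of 8 fibroblast markers (131 and 191 CPM). No marker in these lists was at 0 reads in either library. Their part in the folds of the 10 genes was not tested.

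Chromosomal neighbours were compared next, taking the 3 nearest measured genes that gencode vM1 annotates as coding on each side of each of 8 places that the 10 genes occupy, 1 of which, Gm5434 near Agr2, has a RefSeq entry of the non-coding kind. Of 43 neighbours, 42 were tested, and 13 were at least 3-fold higher in WT, against 21.1% of all entries tested. None was at least 3-fold lower, against 2.03%, and 28 were within 2-fold, against 65.5%. The 1 between these limits was Tfrc, near Muc4, at 0.422. On chromosome 17, the fold of the lipid transporter gene Abcg1, 9529 bases from Tff3, was 1.14, and that of Tmprss3, 14219 bases from Tff1, was 0.933, so that the gene next to the trefoil run was within 2-fold on either side. Farther out, Umodl1 was at 7.54 and Rsph1 at 3.18. On chromosome 7, Muc5ac, which lies between Muc2 and Muc5b, was at 178-fold, and outside that run Ap2a2 was at 1.17 and Tollip, 1728 bases from Muc5b, at 1.35. Next to Reg3g lie further Reg genes, of which Reg1 was at 10.8-fold, Reg3a at 38.5 and Reg2 at 297 (52.8 to 11775), the latter with 1 read in the library labelled Aire-KO. On the other side of Reg3g the nearest gene, Lrrtm4, was at 0.965. Beside Muc13, Heg1 was at 9.27 on 1 side and Itgb5 at 0.842 on the other. Agr2 had Agr3, its paralogue, on 1 side at 17.5-fold and Tspan13 on the other at 1.10. Around Muc1, all 6 neighbours were within 2-fold, as was Muc1.

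**Figure D4:**
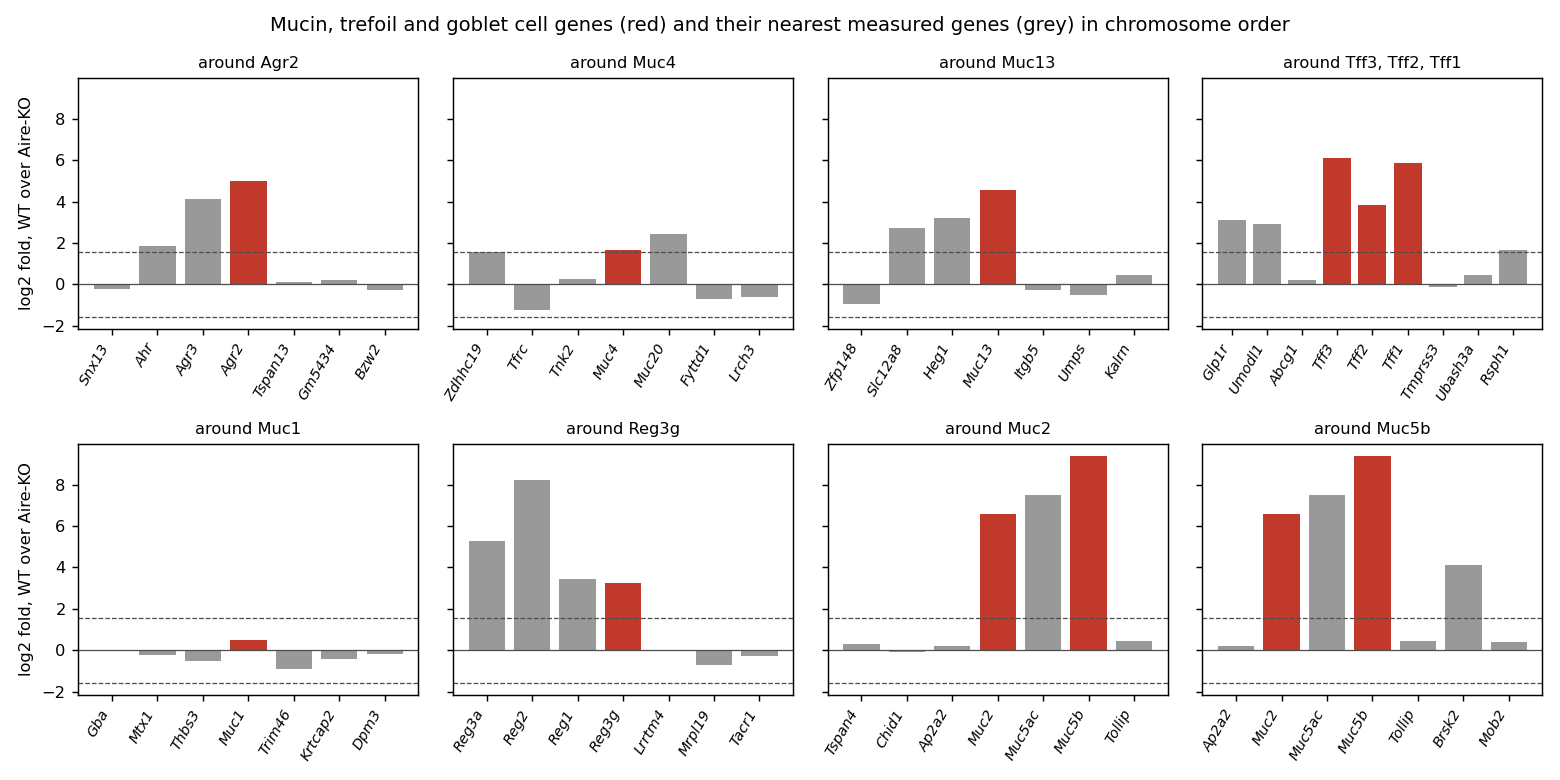
Log2 fold of normalised counts, WT over the library labelled Aire-KO, for the 10 genes (red) and their nearest measured genes annotated as coding in gencode vM1 (grey) in chromosome order, with dashed lines at 3-fold; order only, not distance, is drawn. The genes next to the trefoil run and next to the run of Muc2, Muc5ac and Muc5b have folds near 1, such as Abcg1 at 1.14 and Tollip at 1.35, while some genes farther out, such as Umodl1 at 7.54, do not.

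The second comparison sets mature mTEChi against mTEClo from the same mice. Of the 10 genes, 3 were at least 3-fold higher in mTEChi, against 11.8% of the 29212 entries tested, and 1 was at least 3-fold lower, against 12.8%. A further 4 were within 2-fold, against 61.1%, and at a limit of 2-fold 5 were higher, against 18.7%. The median fold of the 10 was 1.86, beside 1.01 over all entries tested. Those higher were Tff2 at 4.09-fold (3.57 to 4.71), from 3.09 CPM in mTEClo to 13.3 CPM in mTEChi, Tff3 at 3.79 (3.52 to 4.09), from 10.5 to 41.8 CPM, and Muc1 at 3.50 (3.35 to 3.67), from 27.8 to 102 CPM. The fold of Muc1, smallest of the 10 in the Aire pair, was exceeded here by those of Tff2 and Tff3 alone.

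Tff1 and Muc2 lay between 2-fold and 3-fold, Tff1 at 2.04 (1.89 to 2.22), with 9.67 CPM in mTEClo, and Muc2 at 2.64 (2.20 to 3.18), with 1.79 CPM in mTEClo. Within 2-fold were Muc13 at 1.68 (31.0 CPM in mTEClo), Reg3g at 1.24 (366 CPM), Muc4 at 1.15 (10.8 CPM) and Agr2 at 0.962 (3.41 CPM), the interval of Agr2 running from 0.831 to 1.12. Set against the library labelled Aire-KO in CPM, mTEClo was lower for Muc1. Where it was higher, the fold ran from 1.84 for Muc4 to 379 for Muc5b. These libraries come from different pairs, and the share of all entries higher in mTEClo was not computed.

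Muc5b was the gene at least 3-fold lower in mTEChi, at 23.9 CPM in mTEClo and 7.15 CPM in mTEChi Exp2, a fold of 0.285 (0.266 to 0.306). That direction rests on the mTEChi Exp2 library. In CPM, mTEClo was below both other untreated WT mTEChi libraries, which had 49.4 and 37.4 CPM, so the log2 fold over mTEClo became 1.05 with WT of the Aire pair and 0.65 with the 0 h library in place of mTEChi Exp2. For the other 9 genes mTEClo was below all 3 WT mTEChi libraries, as it was for 36.4% of the 25004 entries tested, while it was above all 3 for none of the 10 and for 27.8% of entries.

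With those 3 libraries as the spread, edgeR called none of the 10 genes between mTEChi and mTEClo, while 1.92% of 24687 entries were called higher and 1.45% lower in mTEChi. At an unadjusted p under 0.05, 5 of the 10 were higher in mTEChi, as were 2694 of the 24687 entries, and DESeq2, which called 7.39% of entries higher and 3.94% lower, called 4, namely Tff2, Tff3, Muc1 and Muc2. The edgeR log2 folds of mTEChi over mTEClo were 2.18 ± 0.65 for Tff2 (SE; adjusted p = 0.114), 2.17 ± 0.57 for Muc1 (adjusted p = 0.0856), 2.11 ± 0.71 for Tff3 (adjusted p = 0.147) and 0.25 ± 0.93 for Muc5b (adjusted p = 0.943). Without the 0 h library, edgeR called Tff2, Tff3 and Muc1, with 7.46% of all entries called higher and 4.92% lower.

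Beside the 10 genes, the Reg and mucosal antimicrobial list was again on the side of mTEChi, with 9 of 13 genes at least 3-fold higher there and 3 of 12 tested passing in edgeR, Reg3b at 3.44-fold (3.19 to 3.72) and Lypd8 at 3.59 (3.47 to 3.72). Ltf was at 0.428. Of the 12 mucus and granule genes, 5 were at least 3-fold higher and none lower, with Dmbt1 at 2.74, Clca1 at 1.08 and Fcgbp at 1.01. Genes of O-glycosylation, most of which were within 2-fold in the Aire pair, included 6 of 14 that were at least 3-fold higher in mTEChi, such as Gcnt1, the core branching enzyme, at 5.39, and none that was lower. In the endoplasmic reticulum list 1 of 8 genes was at least 3-fold lower, Creb3l4 at 0.0909, and Xbp1 stood at 0.554.

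Tuft cell markers were at least 3-fold lower in mTEChi for 8 of 10 (summed level 239 CPM in mTEChi, 1390 CPM in mTEClo), fibroblast markers for 6 of 8 (127 and 955 CPM) and endothelial markers for 6 of 8 (39.2 and 244 CPM). Markers of dendritic cells and macrophages were at least 3-fold higher in mTEChi for 4 of 9 (556 and 104 CPM). Keratinocyte markers summed to 701 CPM in mTEChi and 807 CPM in mTEClo, microfold markers to 2029 and 1633 CPM and thymocyte markers to 43.6 and 45.3 CPM, and no marker was at 0 reads. Their part in the folds of the 10 genes was not tested.

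The third comparison follows transcripts after transcription was blocked. From 1.5 h to 12 h, within the treated libraries of 1 kit, the median log2 change in CPM of the 10 genes was -0.14, beside -0.36 over 22554 entries, -0.67 over 4308 entries at least 3-fold higher in WT of the Aire pair and -0.31 over 15198 entries within 2-fold there. A level in CPM is a share of the RNA left, so a rise is relative to other transcripts. By counting intervals alone, 3 genes were higher at 12 h than at 1.5 h, against 20.6% of all entries, 4 were lower, against 32.2%, and 3 had intervals that include 0.

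Among the trefoil genes, Tff3 stood at 32.4, 24.7, 55.0 and 96.7 CPM at 1.5, 3, 6 and 12 h. Its log2 change from 1.5 h to 12 h was 1.58 (1.33 to 1.82). Tff1 stood at 19.2, 9.32, 50.4 and 50.4 CPM, a log2 change of 1.39 (1.04 to 1.73). Both were lower at 3 h and higher at 6 h than at 1.5 h. Tff2 shared that course until 6 h, with 9.47, 6.45 and 17.2 CPM, but was at 5.72 CPM at 12 h, from 10 reads, a log2 change of -0.72 (-1.81 to 0.18) from 1.5 h.

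The gel-forming mucins parted from each other. Muc2 stood at 24.1, 34.7, 47.0 and 30.9 CPM, with a log2 change of 0.36 (-0.08 to 0.76) from 1.5 h to 12 h. Muc5b stood at 47.4, 33.5, 5.31 and 8.59 CPM, the latter from 15 reads, a log2 change of -2.46 (-3.31 to -1.74). Muc5b was thus the lowest of the 10 relative to 1.5 h at both 6 h and 12 h. At 12 h, however, its interval overlapped those of Muc4 and Tff2. Of the membrane-bound mucins, Muc4 stood at 59.2, 109, 58.5 and 14.3 CPM, high at 3 h and low at 12 h, with a log2 change of -2.05 (-2.68 to -1.48) over the whole span.

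Muc1 and Muc13 moved little. Muc1 was at 213, 258, 161 and 199 CPM, a log2 change of -0.10 (-0.27 to 0.05), and Muc13 at 90.0, 104, 95.5 and 71.6 CPM, a log2 change of -0.33 (-0.60 to -0.07). Reg3g stayed abundant throughout, at 869, 620, 773 and 767 CPM, with a log2 change of -0.18 (-0.26 to -0.10). Agr2 was at 3.88, 4.16, 5.40 and 9.73 CPM, the latter from 17 reads, and its log2 change was 1.32 (0.48 to 2.09).

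**Figure D5:**
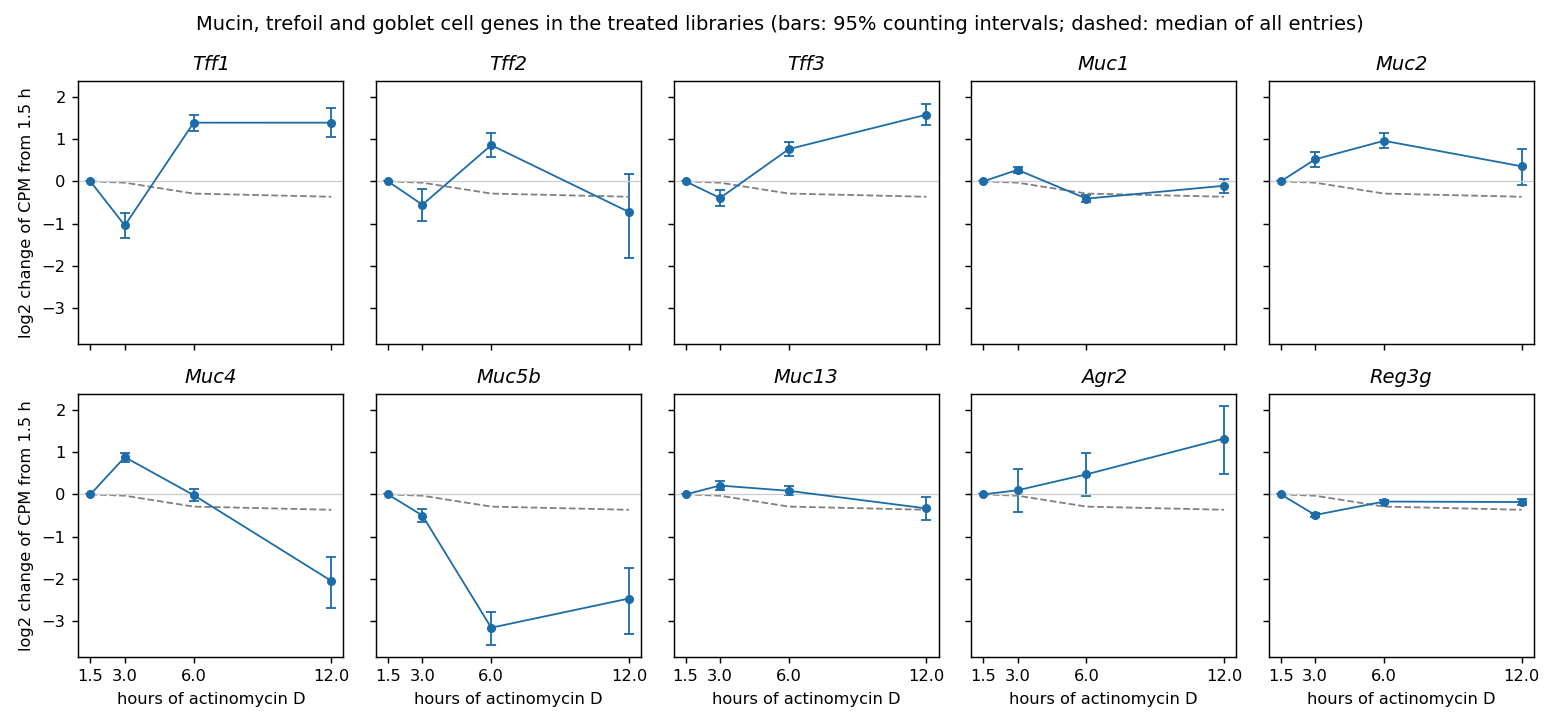
Log2 change of CPM from the 1.5 h library for each gene against hours of actinomycin D, with bars for 95% counting intervals and a dashed line for the median of 22554 entries. Tff1, Tff3 and Agr2 end above 0, Muc4 and Muc5b end more than 2 log2 units below it, and Muc1, Muc13 and Reg3g end 0.10, 0.33 and 0.18 below it.

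No slope over hours passed edgeR's test with adjustment over 20652 entries, of which 0% were called in either direction, while 661 had a positive and 1235 a negative slope at an unadjusted p under 0.05. Among the 10 genes, 4 had an unadjusted p under 0.05, Tff1 and Tff3 with slopes of 0.18 ± 0.08 and 0.18 ± 0.05 log2 units per hour (SE) and Muc4 and Muc5b with slopes of -0.23 ± 0.07 and -0.24 ± 0.09. Their adjusted p in edgeR was 0.518, 0.324, 0.395 and 0.458. DESeq2, which adjusted 3836 entries and called 6.99% of them up and 3.83% down, called Muc4 among the 4 genes that kept an adjusted p (Muc1, Muc4, Muc13 and Reg3g). Without the 6 h library, edgeR called Tff1, Tff3, Muc4 and Muc5b in the same direction, with 3.51% of all entries called up and 5.65% down. Without the 12 h library it called Muc5b, with a slope of -0.74, while 0.428% of entries were called up and 2.55% down.

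Of the companion lists, 13 of 13 O-glycosylation genes measured and 8 of 8 secretory transcription factors were lower in CPM at 12 h than at 1.5 h, with medians of -1.94 and -3.42 on the log2 scale, 4 genes of each list having no read at 12 h. Of 12 mucus and granule genes 8 were higher, with a median of 0.63, and of 12 Reg and antimicrobial genes 8 were higher, with a median of 0.57, beside 37.4% of all entries. Of the marker lists, 6 of 8 thymocyte genes (median 1.63), 7 of 10 mTEC genes (0.35) and 7 of 9 genes of dendritic cells and macrophages (0.31) were higher at 12 h, as were 3 of 7 endothelial genes (-5.25), 3 of 8 microfold genes (-0.22), 2 of 10 tuft genes (-1.39), 2 of 8 fibroblast genes (-0.69) and none of 9 keratinocyte genes (-1.71). Their part in the changes of the 10 genes was not tested. The treated libraries were the shallowest, and the part of depth in these values was not tested.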

How the data were processed

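RNA-seq libraries of sorted mTEC from B6 mice were grouped by their labels, 1 library per group. Per the labels and methods, the authors filtered reads by CASAVA, trimmed those of the pairs, aligned them to mm9 with Bowtie 1.0.0 and counted reads wholly inside RefSeq exons with bedtools. The actinomycin D files were deposited as raw counts, in columns that carry no sample names. For the pairs the authors deposited a signal, the counts over DESeq size factors (normalised counts), and columns with the authors' own folds and p-values were not used. Whole reads were recovered from the normalised counts, 100% of values being whole within 0.1. Symbols came from RefSeq (97.7% of entries matched) and mm9 positions from gencode vM1.

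Here, entries reaching 10 normalised counts over both libraries of a pair were classed at 3-fold and within 2-fold, with exact 95% intervals from the reads, and a count of 0 was replaced by 3 reads. Changes with actinomycin D used CPM, with 0.5 reads added in proportion to depth, where the 4 treated libraries held at least 10 reads. edgeR 4.0.16 (quasi-likelihood, TMM, default expression filter) and DESeq2 1.42.0 in R 4.3.3 compared the 3 untreated WT mTEChi libraries with the lone other library and fitted slopes over hours on the 4 treated libraries, with Benjamini-Hochberg adjustment at 0.05, after a test on simulated data. No label calls these libraries separate cultures or animals, so p-values measure the spread between libraries alone. Each SE given with an edgeR log2 fold or slope was derived as its absolute value over the square root of the quasi-likelihood F statistic. Other steps used scipy 1.17.1, numpy 2.4.6, matplotlib 3.10.9 and pandas 2.3.3 in Python 3.11.15.

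Reads summed over the entries of each library ranged from 1746825 to 195444567 and bear on the precision. A read in an exon shared by several entries can count more than once in such a sum, so it is not the number of reads sequenced. The entries of the 10 genes were found by name, but the 10 genes, the other lists and the tests were chosen with earlier results of these data known. Besides the 10 genes and Aire, the gene targeted, the text names up to 4 genes of each list with the highest mean CPM over the 5 untreated libraries, genes among the 3 nearest measured coding genes on each side, and the 5 genes nearest to the trefoil profile. Alternatives covered scaling, minimum, fold limit, entry choice, the WT library used, the tool, the filter and leaving out each library.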

Additional observations from a re-analysis of the deposited data

How the results depend on the processing

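No paired test was possible with 1 library per group. The mTEChi and mTEClo libraries of Exp2 came from the same mice, but the edgeR and DESeq2 fits did not use that pairing. The count of 9 genes higher in WT of the Aire pair was 7 with mTEChi Exp2 (without Muc4 and Reg3g) and 9 with 0 h in place of WT, and 9 under the other alternatives run. Scaling by reads summed over entries raised every log2 fold of that pair by 0.23 and moved the median over all entries from 0.03 to 0.26. The 3 genes higher in mTEChi than in mTEClo became 5 at a fold limit of 2, 8 with WT of the Aire pair and 6 with 0 h in place of mTEChi Exp2. The 1 lower gene, Muc5b, became 0 with either, and its log2 fold turned to 1.05 and 0.65. In the edgeR fit its log2 fold of 0.25 was -0.35 without WT of the Aire pair.

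The 6 genes called against the library labelled Aire-KO were 7 to 8 under another tool, filter or scaling, and 7 to 8 when 1 library was left out. Between mTEChi and mTEClo, 0 called in edgeR became 4 in DESeq2 and 0 to 3 when 1 library was left out. For slopes, 0 became 1 in DESeq2 and 0 to 4 when 1 library was left out. The median log2 change of -0.14 from 1.5 h to 12 h became 0.28 at 6 h, beside -0.29 over all entries. From 1.5 h to 3 h it was -0.15, lower than the -0.03 over all entries. The cause was not tested.

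Depth limits the 12 h values, where Tff2, Muc5b and Agr2 rest on 10, 15 and 17 reads, and the folds of Muc2 and Muc5b, which rest on 9 reads each in the library labelled Aire-KO.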

Other observations

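Genes whose profile over the 9 libraries was most like the mean profile of Tff1, Tff2 and Tff3 were sought among 15661 symbols with at least 100 reads at 0 h, by the Euclidean distance of log2(CPM + 0.1) values centred on their mean. The 5 nearest that are not among the 10 genes were Krt84, a hair and tongue keratin gene, at a distance of 0.94, Fam25c at 0.96, the cholecystokinin receptor gene Cckar at 1.02, the hemopexin gene Hpx at 1.35 and Cd5l, known from macrophages, at 1.40. Krt84 stood at 81.3 CPM in WT and 2.10 CPM in the library labelled Aire-KO, and Cckar at 4.98 and 0.0140 CPM.

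Tff1 and Tff3 were at a distance of 1.17 from each other, whereas Tff2 was at 3.09 from Tff1 and 3.20 from Tff3. These distances include the shallow 12 h library, with Tff1 at 50.4 CPM, Tff3 at 96.7 CPM and Tff2 at 5.72 CPM from 10 reads. In the library labelled Aire-KO the levels were 0.587, 0.895 and 1.25 CPM in the same order. Of the other genes studied, Agr2 came nearest to the trefoil profile, at 1.77 and rank 39, followed by Muc13 at 2.12 and rank 112, and Muc5b was farthest, at 5.28 and rank 8626. These distances are descriptions over libraries that share a kit or a time course.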
